A study of Arabidopsis thaliana with 4 samples.

Results

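The cysteine-rich receptor-like kinases (CRKs) of Arabidopsis thaliana were followed in rosettes of wild-type Col-0 and of plants labelled 35S:∆13RAP2.12. The family was taken as a fixed list of 41 loci, matched by locus to the probe sets of the array, and all 41 were found among 27826 probe sets. No filter on low signal was applied, so every member was tested. Of the members, 36 lie on chromosome 4, 3 on chromosome 1, 1 on chromosome 3 and 1 on chromosome 5.

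Both groups were of the accession Columbia-0 and were grown for 4 weeks in soil, with 12 h of light, 22 °C by day and 18 °C at night. Both had been stratified, a cold treatment of seeds, at 4 °C for 2 days. Rosettes were taken 10 h after the lights came on. The 35S:∆13RAP2.12 plants carry, per their label, a shortened RAP2.12 behind 35S, a promoter from a plant virus that drives expression in nearly every tissue. The protein it encodes belongs to group VII of the ethylene response factors, whose amino terminus normally marks them for breakdown when oxygen is present. The comparison asks how transcript levels differ when the shortened form is expressed. Each group had 2 arrays, 4 in all, and this small number limits how precise any value can be. The labels number the replicates without saying that they came from separate plants, so p-values rest on the spread between arrays, which may be technical. The labels do not say whether the transgenic plants came from 1 line or several.

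CRKs sit in the plasma membrane, with cysteine-rich domains outside the cell and a serine/threonine kinase inside. Many are transcriptionally responsive to pathogens, salicylic acid and ozone, and several act upstream of the burst of reactive oxygen species (ROS) that follows recognition of microbes. They work beside pattern receptors such as FLS2, the co-receptor BAK1, the cytoplasmic kinase BIK1 and the oxidase RBOHD. A large share of the family lies in runs of neighbouring genes, which arise by tandem duplication, and such copies can be alike in sequence.

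Levels are given as RMA values in log2 units, so that a difference of 1 is a 2-fold change. RAP2.12 itself was at 11.07 and 11.16 on the wild-type arrays and at 11.28 and 11.06 on the 35S:∆13RAP2.12 arrays. The groups overlapped (difference 0.06, SE 0.13, limma adjusted p = 0.879), so this probe set did not show the transgene, and the labels do not say which part of the transcript it reads. Directions below are therefore those of the arrays labelled 35S:∆13RAP2.12. Of 3 leaf markers, the small Rubisco subunit gene RBCS1A was at 12.99 to 13.09 and the antenna gene CAB1 at 11.70 to 11.83, and LHCB2.1 lay between 7.72 and 7.86. The labels give rosettes as the tissue and whole plants as the source of the RNA. Of 3 root markers, SHV2 and EXPA7 had means below the array-wide lower quartile in both groups, while EIR1 lay between 5.10 and 6.01 on the 4 arrays. Both flower markers, AP3 and PI, were below that quartile too, and of the seed markers SESA3 was below it and CRU3 lay between 5.18 and 5.37. None of these marker genes passed the test. In whole rosettes, fewer cells of a type and less RNA per cell cannot be told apart.

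Of the 41 members, 6 rose and 1 fell in the 35S:∆13RAP2.12 arrays, and 34 did not pass (limma, Benjamini-Hochberg adjusted p below 0.05 over all probe sets). The 6 that rose were CRK7, CRK13, CRK39, CRK23, CRK6 and CRK45, by 1.50 to 3.10 on the log2 scale, and the 1 that fell was CRK41. The higher calls were 14.6% of the members, where 1.74% of all probe sets were called higher. For the lower direction the share was 2.44% of the members beside 0.424% of all probe sets, which rests on a single gene. The groups of arrays did not overlap for 14 members that were higher (19.5% of all probe sets) and 9 that were lower (29.1% of all probe sets).

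**Figure D1:**
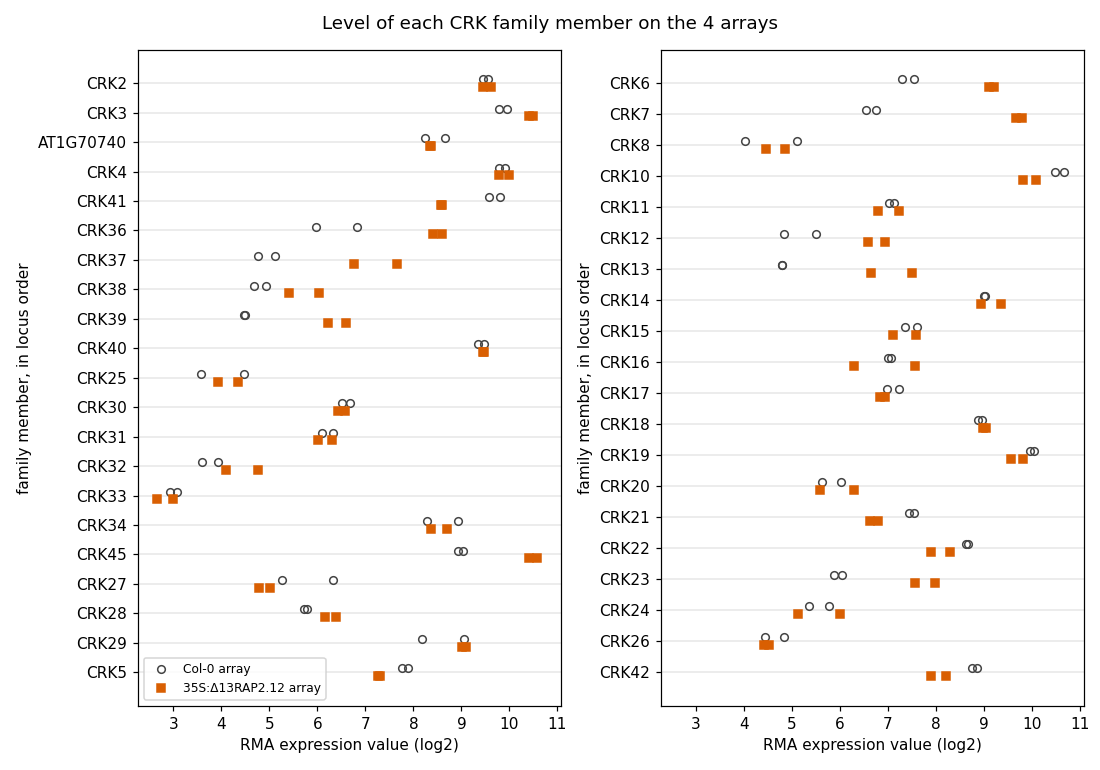
Level of each of the 41 family members on each array, as RMA values on the log2 scale, with members in locus order. Open circles are the 2 Col-0 arrays and filled squares the 2 35S:∆13RAP2.12 arrays; CRK7 lies at 6.53 and 6.74 in Col-0 and at 9.79 and 9.67 in 35S:∆13RAP2.12, while CRK2 and CRK4 overlap.

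Differences went both ways within the family. The median log2 difference over the 41 members was 0.04, with quartiles of -0.16 and 0.67, and over all probe sets it was -0.04, with quartiles of -0.20 and 0.13. The median level of the members was 7.07 and 6.99 on the wild-type arrays and 7.26 and 7.58 on the 35S:∆13RAP2.12 arrays, while that of all probe sets was between 7.88 and 7.91. No test was made of the family as a whole. The difference was positive in 22 members and negative in 19. At least 2-fold differences were found for 10 members, 9 higher (2.91% of all probe sets) and 1 lower (1.03% of all probe sets). The median spread between replicate arrays was also wider in the members. It was an SD of 0.14 in the wild type and 0.20 in 35S:∆13RAP2.12, beside 0.12 and 0.10 over all probe sets.

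**Figure D2:**
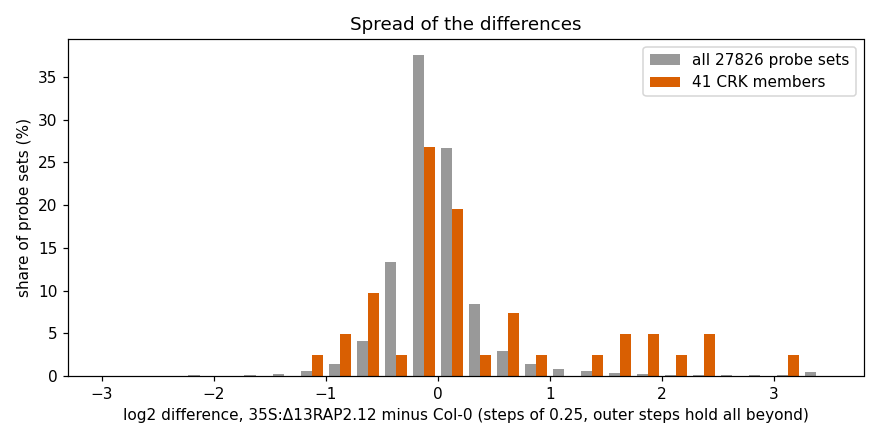
Share of probe sets in each step of 0.25 of the log2 difference between 35S:∆13RAP2.12 and Col-0, for all 27826 probe sets in grey and the 41 members in orange. The steps on either side of 0 hold 37.6% and 26.7% of all probe sets and 26.8% and 19.5% of the members, and 9 members lie at 1 or above.

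At an unadjusted p below 0.05, 12 members were higher (7.85% of all probe sets) and 6 lower (8.38% of all probe sets). Fewer members were called when 1 array was left out. Such a fit has 1 group with a single array, which is assumed to vary like the other group, so a lost call does not mark a particular array. Without replicate 1 of 35S:∆13RAP2.12, 5 members were higher (0.866% of all probe sets), and without its replicate 2, 3 were (1.03% of all probe sets). Without wild type replicate 1, 0 members passed, as did 0 of all probe sets, while 17 members had an unadjusted limma p below 0.05 (15.6% of all probe sets). Without wild type replicate 2, 0 members passed and 28 probe sets in all were called higher (0.101%), while 15 members had an unadjusted p below 0.05 (13.2% of all probe sets). No member was called lower in any of these 4 fits. With a prior variance that followed the level, 10 members were higher (3.74% of all probe sets) and 3 lower (2.58% of all probe sets). CRK7, CRK13 and CRK39 were called in both fits that left out a 35S:∆13RAP2.12 array, CRK23 and CRK37 only without its replicate 1, and CRK6, CRK45 and CRK41 in none of the 4. The differences themselves moved little in these fits: from 3.00 to 3.20 for CRK7, 1.6 to 1.85 for CRK6, 1.41 to 1.58 for CRK45 and -1.22 to -0.99 for CRK41.

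**Figure D3:**
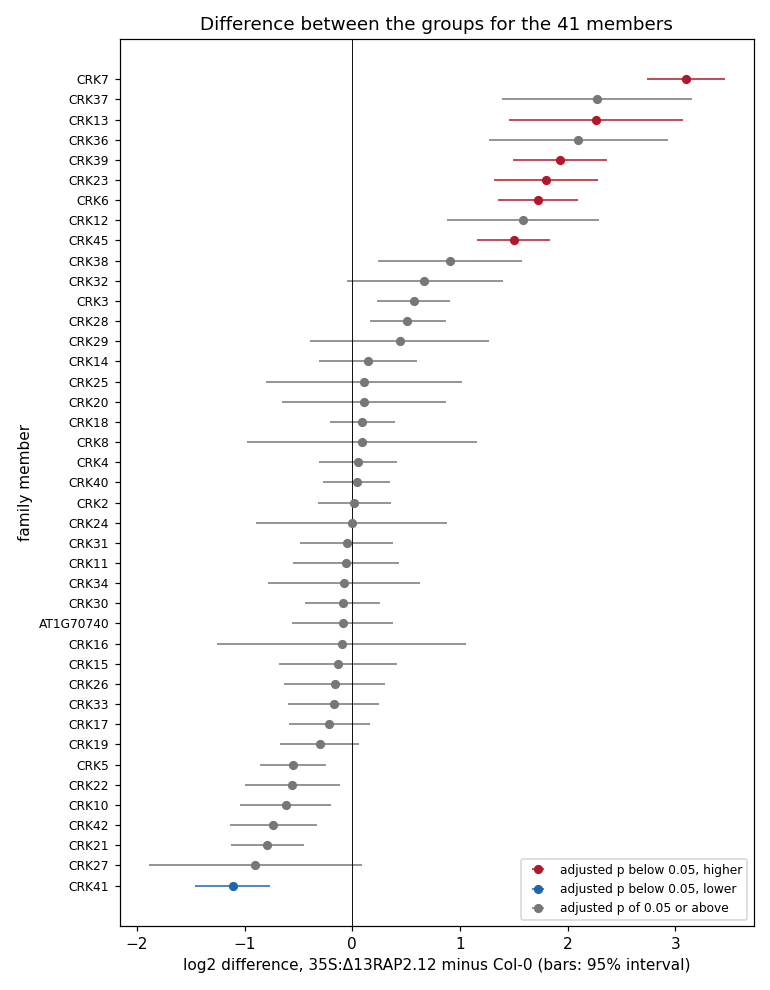
Log2 difference of each member between 35S:∆13RAP2.12 and Col-0, sorted by size, with 95% intervals from limma. Red marks the 6 members with an adjusted p below 0.05 that were higher, blue the 1 that was lower (CRK41, -1.11), and grey the other 34; CRK37, CRK36 and CRK12 lie at 1.59 or above with an adjusted p over the threshold.

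Among members linked to ROS, CRK7 and CRK6 rose. Both genes are known from mutants to take part in the response to ROS outside the cell. CRK7 (AT4G23150) was at 6.53 and 6.74 on the wild-type arrays and at 9.79 and 9.67 on the 35S:∆13RAP2.12 arrays. The groups were thus far apart, with the replicates of each close together. The mean rose from 6.63 ± 0.15 to 9.73 ± 0.085 (SD, n = 2), a difference of 3.10 (SE 0.14, 95% interval 2.74 to 3.46, limma adjusted p = 0.00438) or 8.57-fold. It had the largest difference and the smallest p of the 41 members.

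CRK6 (AT4G23140), the gene next to CRK7 on the chromosome, was at 7.55 and 7.30 in the wild type and at 9.20 and 9.10 in 35S:∆13RAP2.12. It rose by 1.73 (SE 0.14, 95% interval 1.35 to 2.1, limma adjusted p = 0.0152), which is 3.31-fold. The arrays did not overlap, and the gap between groups was several times the distance between replicates.

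CRK36 (AT4G04490), which phosphorylates BIK1 and also takes part in abscisic acid responses, had wild-type levels further apart, at 6.83 and 5.97. Its levels were 8.40 and 8.59 on the 35S:∆13RAP2.12 arrays, above both wild-type arrays. The difference of 2.1 (SE 0.31, 95% interval 1.27 to 2.93) had a limma adjusted p of 0.0615 and passed with the low-signal filter (0.0417) and with the intensity trend (0.00318). CRK2 (AT1G70520), which phosphorylates RBOHD, had levels of 9.45 and 9.56 in the wild type and 9.44 and 9.62 in 35S:∆13RAP2.12. These overlapped, with a difference of 0.02 and a 95% interval of -0.32 to 0.36 (limma adjusted p = 0.962), and its sign turned with median centring. Of these 4 members, 2 were higher (1.74% of all probe sets), 0 lower (0.424% of all probe sets) and 2 did not pass.

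Of 7 members tied to cell death or resistance, CRK13 rose and 6 did not pass, where 1.74% of all probe sets were called higher. CRK13 (AT4G23210), whose forced expression raises salicylic acid and resistance to bacteria, was at 4.80 on both wild-type arrays and at 7.49 and 6.64 in 35S:∆13RAP2.12. The difference of 2.26 (SE 0.30, 95% interval 1.46 to 3.07, limma adjusted p = 0.0485) is 4.80-fold. Its wild-type mean of 4.80 lay just above 4.76, the lower quartile of wild-type means over the array, so the size of this increase is not settled. Replicates lay apart only in 35S:∆13RAP2.12, and the call sat at the edge of the threshold: it was lost with quantile normalization applied again (adjusted p = 0.0506), robust eBayes (0.0552) and array weights (0.0599).

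CRK4, CRK5, CRK19 and CRK20 are known for triggering cell death when their expression is forced. CRK5 (AT4G23130) was at 7.77 and 7.89 in the wild type and at 7.26 and 7.30 in 35S:∆13RAP2.12, a difference of -0.55 (SE 0.12, limma adjusted p = 0.125). CRK19 (AT4G23270) was at 10.03 and 9.96 beside 9.57 and 9.81, a difference of -0.30 (limma adjusted p = 0.384). In both, the 35S:∆13RAP2.12 arrays lay below the wild-type arrays (29.1% of all probe sets) without passing the test. CRK4 (AT3G45860) was at 9.91 and 9.78 beside 9.79 and 10.00, a difference of 0.05 with a 95% interval of -0.31 to 0.42. CRK20 (AT4G23280) was at 5.63 and 6.02 beside 5.59 and 6.29, a difference of 0.11 with a 95% interval of -0.65 to 0.87. The arrays of the groups overlapped in these last 2 genes, and for each of them leaving out replicate 2 of 35S:∆13RAP2.12 turned the sign, to -0.06 for CRK4 and -0.24 for CRK20.

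CRK10 (AT4G23180), whose overactive form gives stunted plants with defence switched on, was at 10.67 and 10.47 in the wild type and at 9.81 and 10.09 in 35S:∆13RAP2.12. Its difference of -0.62 (SE 0.16, 95% interval -1.04 to -0.20, limma adjusted p = 0.176) passed with the intensity trend (0.0198). CRK28 (AT4G21400), which associates with BAK1, was at 5.78 and 5.72 beside 6.38 and 6.15, a difference of 0.51 (SE 0.13, limma adjusted p = 0.182). These 2 genes had arrays that did not overlap, with CRK10 below the wild type (29.1% of all probe sets) and CRK28 above it (19.5% of all probe sets).

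CRK45 (AT4G11890) rose. It is also named ARCK1, a cytosolic kinase of the family that works with CRK36 in abscisic acid and osmotic stress responses. Levels of CRK45 were 8.93 and 9.04 in the wild type and 10.40 and 10.57 in 35S:∆13RAP2.12. The 2 groups were well apart, with an SD of 0.074 and 0.12. It rose by 1.50, or 2.83-fold (SE 0.13, 95% interval 1.16 to 1.84, limma adjusted p = 0.0167).

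For the other 29 members no role is described here. Of these, 2 rose (1.74% of all probe sets), 1 fell (0.424% of all probe sets) and 26 did not pass, and the median difference was -0.05. CRK39 (AT4G04540) was at 4.47 and 4.50 on the wild-type arrays and at 6.60 and 6.23 on the 35S:∆13RAP2.12 arrays. It rose by 1.93 (SE 0.17, 95% interval 1.49 to 2.37, limma adjusted p = 0.0169), or 3.81-fold. Its wild-type mean of 4.48 lay below 4.76, the lower quartile of wild-type means over the array, and whether such signal is above background is unknown, so the size of this increase is not settled. CRK23 (AT4G23310) was at 6.05 and 5.88 in the wild type and at 7.56 and 7.97 in 35S:∆13RAP2.12, and rose by 1.80 (SE 0.18, 95% interval 1.32 to 2.28, limma adjusted p = 0.0248), or 3.48-fold.

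CRK41 (AT4G00970) was the only member that fell. It was at 9.81 and 9.58 in the wild type and at 8.60 and 8.58 in 35S:∆13RAP2.12, where the replicates nearly coincided. The level was 2.16-fold lower, with a difference of -1.11 (SE 0.13, 95% interval -1.46 to -0.76, limma adjusted p = 0.0391). With the replicate number as a block the call was lost (adjusted p = 0.0582).

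Other members with large differences did not pass. CRK37 (AT4G04500) was at 5.11 and 4.76 in the wild type and at 6.77 and 7.65 in 35S:∆13RAP2.12, a difference of 2.27 (SE 0.33, 95% interval 1.39 to 3.16, limma adjusted p = 0.0595). That difference is as large as that of CRK13, and the SD in 35S:∆13RAP2.12 was alike, 0.62 for CRK37 and 0.60 for CRK13. In the wild type the SD was 0.25 for CRK37 and 0.0040 for CRK13. CRK37 passed with the low-signal filter (limma adjusted p = 0.0402) and the intensity trend (0.00479). CRK12 (AT4G23200) was at 4.84 and 5.49 beside 6.93 and 6.59, a difference of 1.59 (SE 0.27, limma adjusted p = 0.0788) that passed with the intensity trend (0.0167). CRK38 (AT4G04510) was at 4.68 and 4.93 beside 6.04 and 5.40, a difference of 0.91 (SE 0.25, limma adjusted p = 0.197). In all of these genes both 35S:∆13RAP2.12 arrays lay above both wild-type arrays (19.5% of all probe sets), which was a condition for naming them here. The wild-type means of CRK37 (4.93) and CRK38 (4.81) were close to the array-wide lower quartile of 4.76.

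CRK3 and CRK32, also named on the condition that their arrays lay apart, had smaller positive differences. CRK3 (AT1G70530) was at 9.96 and 9.79 in the wild type and at 10.40 and 10.49 in 35S:∆13RAP2.12, a difference of 0.57 (SE 0.13, limma adjusted p = 0.136) that passed with the intensity trend (0.0123). CRK32 (AT4G11480) was at 3.60 and 3.93 beside 4.10 and 4.77, a difference of 0.67 (SE 0.27, limma adjusted p = 0.335). Both group means of CRK32 were below the array-wide lower quartile.

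On the negative side, CRK21 (AT4G23290) was at 7.44 and 7.55 in the wild type and at 6.62 and 6.79 in 35S:∆13RAP2.12, a difference of -0.79 (SE 0.13, limma adjusted p = 0.0729) that passed with the low-signal filter (0.0421). Its neighbour CRK22 (AT4G23300) was at 8.67 and 8.63 beside 7.90 and 8.28, a difference of -0.56 (SE 0.17, limma adjusted p = 0.223). CRK42 (AT5G40380) was at 8.74 and 8.85 beside 8.21 and 7.90, a difference of -0.74 (SE 0.15, limma adjusted p = 0.120) that passed with the intensity trend (0.0316). These genes had tight wild-type replicates. Lower values on both 35S:∆13RAP2.12 arrays (29.1% of all probe sets) were a condition for naming them here. CRK27 (AT4G21230) was at 5.27 and 6.33 beside 4.79 and 5.01, a difference of -0.90 (SE 0.37, limma adjusted p = 0.349). The wild-type arrays of CRK27 lay as far apart as the groups did.

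The remaining 17 members had differences from -0.22 to 0.44, with limma adjusted p from 0.531 to 0.998. Arrays of the groups overlapped in 15 of them, beside 14311 of all 27826 probe sets. Members with larger differences and arrays apart had been named first, so small differences and overlap here follow in part from that choice. The ends of that range were CRK17 at -0.22 and CRK29, a neighbour of CRK28, at 0.44, where 1 wild-type array stood at 8.18 and the other 3 arrays between 9.01 and 9.10. Some of these intervals were wide: for CRK16 it ran from -1.26 to 1.06, with 35S:∆13RAP2.12 arrays at 6.29 and 7.57. In 4 of the 17, CRK8, CRK25, CRK26 and CRK33, both group means lay below the lower quartile, where a change could go unseen.

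**Figure D4:**
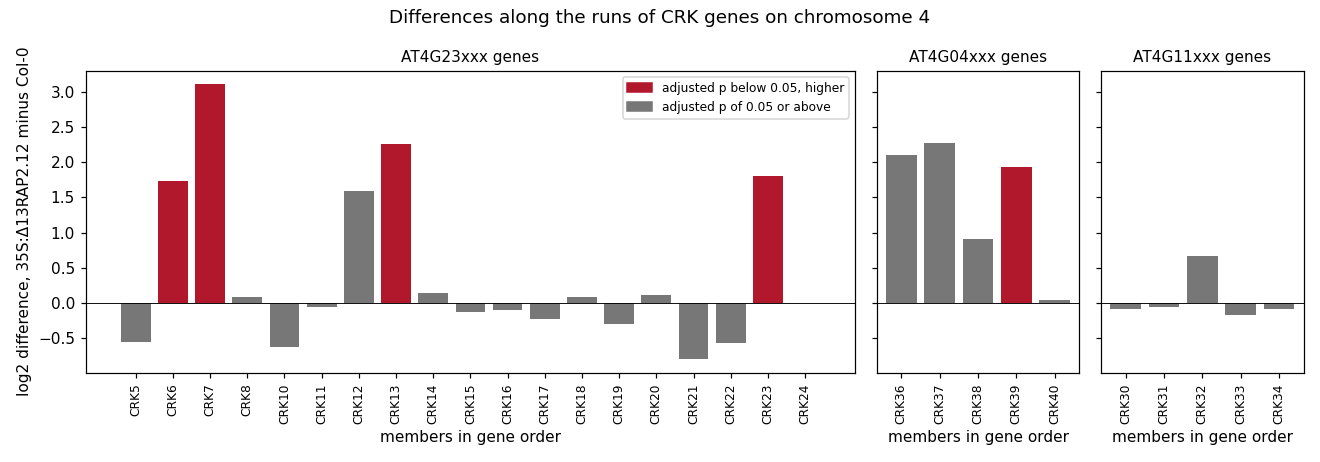
Log2 difference between 35S:∆13RAP2.12 and Col-0 for members in gene order along 3 runs on chromosome 4, named by the start of their locus numbers. Red bars had an adjusted p below 0.05; tall bars stand beside bars near 0 in the AT4G23 run, and 4 of the 5 bars of the AT4G04 run are at 0.91 or above.

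Along the chromosome, differences varied between close neighbours. The longest run, from CRK5 to CRK24, holds 19 members, with a median difference of -0.00. Of these members 4 rose (1.74% of all probe sets), 0 fell (0.424% of all probe sets) and 15 did not pass. CRK6 and CRK7 are flanked by CRK5 at -0.55 and CRK8 at 0.09. CRK23, at 1.80, lies between CRK22 at -0.56 and CRK24 at -0.00. CRK12 and CRK13 are neighbours too, at 1.59 and 2.26. The 3 other genes within that run that have a probe set, among them CRK9, had differences from -0.30 to -0.25, and 0 of them passed (limma, lowest adjusted p = 0.487). They are not members.

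In the run from CRK36 to CRK40, 5 members had a median difference of 1.93. CRK39 rose, and 4 did not pass, where 1.74% of all probe sets were called higher. In 4 of the 5, both 35S:∆13RAP2.12 arrays lay above the wild type (19.5% of all probe sets). CRK40 (AT4G04570), at its end, was at 9.47 and 9.35 in the wild type and 9.44 and 9.47 in 35S:∆13RAP2.12, a difference of 0.04 with a 95% interval of -0.27 to 0.35. In the run from CRK30 to CRK34, 0 of 5 members passed (limma), and the differences were -0.17 to 0.67. At an unadjusted limma p below 0.05 there were 0 of the 5, beside 4517 of all 27826 probe sets. Whether the runs differ from each other was not tested.

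Of 19 pairs of members with no other gene between them, 11 had differences of the same sign and 8 of opposite sign. In 3 of those pairs, CRK28 with CRK29, CRK10 with CRK11 and CRK16 with CRK17, the annotated genes overlap. Signal from such pairs, or from copies close in sequence, cannot be told apart without the probe sequences, which were not used here.

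Of 27826 probe sets on the array, 27223 did not pass, and the lists of related genes are to be read against that. Of 10 pattern receptors and co-receptors, LYK4, a chitin co-receptor with lysin motifs, fell from 9.17 and 9.38 to 8.28 and 8.11, a difference of -1.09 (SE 0.14, limma adjusted p = 0.0462), and 9 did not pass. LYK4 passed in 0 of the 4 fits that left out an array (limma adjusted p from 0.130 to 0.226), nor with the replicate block (0.0783). The flagellin receptor FLS2 had a difference of -0.97 (adjusted p = 0.0938), the damage-peptide receptor PEPR1 one of 0.50 (0.432) and SOBIR1 one of 0.39 (0.219). BAK1 differed by 0.14 (95% interval -0.19 to 0.46). The list's median was 0.10.

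Among 6 cytoplasmic partners and MAP kinases none passed, and the median was 0.05. RBOHD, the oxidase of the immune ROS burst, came closest, at 9.49 and 9.48 in the wild type and 9.99 and 10.07 in 35S:∆13RAP2.12, a difference of 0.54 (SE 0.11, limma adjusted p = 0.119). For BIK1, the substrate of CRK36, the difference was 0.34 (adjusted p = 0.434). At an unadjusted limma p below 0.05, 1 of the 6 genes was higher and 0 were lower, beside 7.85% and 8.38% of all probe sets.

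The plasmodesmata-located proteins (PDLPs) share the cysteine-rich domains of the CRKs but lack the kinase. Of 8, 0 passed (limma), and the median was -0.10. At an unadjusted limma p below 0.05, 3 were higher and 0 lower, beside 7.85% and 8.38% of all probe sets. The largest differences were 0.50 for PDLP4 (adjusted p = 0.172), 0.45 for HWI1, also known as PDLP5 (0.184), and 0.43 for PDLP8 (0.243). These 3 genes had 35S:∆13RAP2.12 arrays above the wild type (19.5% of all probe sets), and both group means of PDLP4 were below the array-wide lower quartile. Of 5 wall-associated kinases, a family of receptor kinases that bind pectin, WAK3 rose from 5.11 and 4.87 to 7.43 and 6.97, by 2.21 (SE 0.20, limma adjusted p = 0.0197), and 4 did not pass, with a list median of 0.12. WAK3 did not pass without wild type replicate 1 (0.153) or replicate 2 (0.188).

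Salicylic acid is a known inducer of many CRKs, and 6 genes of its synthesis and output were measured beside them. EDS16, also known as ICS1, which makes salicylic acid precursor, was at 6.94 and 6.98 in the wild type and 7.84 and 7.76 in 35S:∆13RAP2.12, and rose by 0.84 (SE 0.11, limma adjusted p = 0.0493). That call was lost with median centring (0.0513), robust eBayes (0.0535), array weights (0.0512), the replicate block (0.0921) and in each fit that left out an array (0.165 to 0.225). BGL2, also known as PR2, differed by 1.38 (adjusted p = 0.0505) and PR5 by 0.70 (0.0683), with both group means of BGL2 below the array-wide lower quartile. The marker PR1 was at 3.22 and 7.00 on the wild-type arrays, beside 10.16 and 9.75. Wild type replicate 2 thus stood apart from replicate 1 for PR1, whose difference was 4.85 (SE 1.27, limma adjusted p = 0.181). Of these 6 genes 1 rose, 0 fell and 5 did not pass, with a median of 0.77. The difference was positive in 5 and negative in 1, EDS1, at -0.27 with overlapping arrays (limma adjusted p = 0.565). The part of these genes in the differences of the CRKs was not tested.

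**Figure D5:**
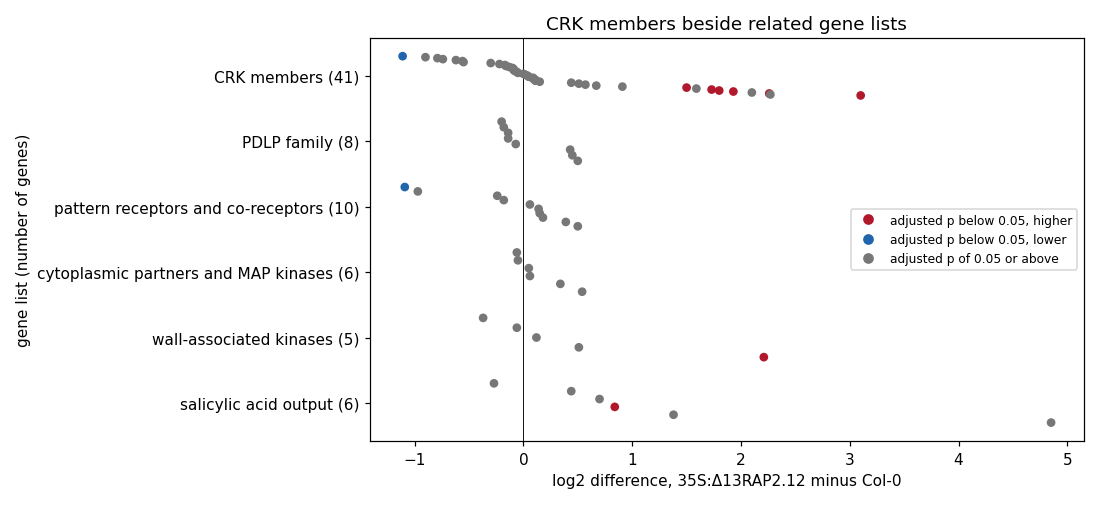
Log2 difference between 35S:∆13RAP2.12 and Col-0 for each gene of the family and of 5 related lists, 1 point per gene. Red points were higher and blue points lower with an adjusted p below 0.05; WAK3 at 2.21, EDS16 at 0.84 and LYK4 at -1.09 are the coloured points outside the family, and the point furthest to the right is PR1 at 4.85.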

How the data were processed

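The authors deposited 1 table of RMA expression values for biotin-labelled total RNA on Affymetrix Arabidopsis arrays. RMA, which corrects background, normalizes by quantiles and summarises probe sets, is named in the submitters' processing notes, and the log2 scale of the deposited values follows from their range. The labels name no software, version or probe set definition. Sample titles gave the groups and replicate numbers. The series text describes more arrays, and the others were not analysed here.

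Group differences were fitted by lmFit and eBayes at their defaults, without covariates (limma 3.58.1, R 4.3.3), over all 27826 probe sets, with Benjamini-Hochberg adjustment, a threshold of 0.05 and 95% intervals. An exact permutation test of 2 against 2 arrays cannot go below p = 0.333 and was not used. In simulated data for this comparison (27826 genes, 10 simulations), 3.60% of log2 changes of 1, 78.2% of those of 2 and 94.5% of those of 4 were recovered. Those rates depend on the number of changed genes and the spread set in the simulations, and may differ in the real data. A member that did not pass may still have changed. The array's build is not given, so the RefSeq gene table of assembly TAIR10.1, which holds all 41 members, gave only names and gene order.

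The members and lists were chosen with earlier results of these data known. Values on each array are given for called members, the 12 next largest differences with arrays apart, and members with a described role. From other lists, called genes and up to 4 others by size are named, and BAK1 and EDS1 were added after their values were seen. Alternatives were repeated quantile normalization, median centring, a low-signal filter at the 25th percentile, array weights, robust eBayes, eBayes whose prior variance follows the level (intensity trend), a replicate block, single arrays left out, and thresholds of 0.01 and 0.1. Figures were drawn with matplotlib 3.10.9.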

Additional observations from a re-analysis of the deposited data

How the results depend on the processing

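Over 13 alternatives, the count of members called higher, 6 as reported, was 10 with the intensity trend, 8 with the low-signal filter, 1 at an adjusted p below 0.01, 9 below 0.1, and 0 to 5 when single arrays were left out. The count called lower, 1 as reported, was 2 with the low-signal filter, 3 with the intensity trend, 0 at an adjusted p below 0.01, 2 below 0.1, and 0 in every fit that left out an array. Over all probe sets, 603 as reported, the count was 1759 with the trend, 160 below 0.01, 1203 below 0.1, and 0 to 315 with an array left out. The replicate numbers are shared by both groups, but there are only 2 pairs, and the deviations of same-numbered arrays correlated at 0.035 over all probe sets, so they were not treated as pairs. Over the 41 members that correlation was -0.24. With the replicate block, 0 members were lower and 515 probe sets in all were called, and among the named members the call of CRK41 alone was lost. Of the 3 called genes of the related lists, LYK4 and EDS16 lost theirs under the block. The median difference over the members stayed within the spread between arrays, from -0.057 to 0.119 with arrays left out. The low-signal filter kept 36 of the 41 members and 20869 probe sets in all. Of those probe sets 902 were called, beside 603 of 27826 without the filter. Among the 24 named members, the sign turned for CRK2 with median centring (-0.01, limma adjusted p = 0.986). With arrays left out, the difference ranged from -0.07 to 0.11 for CRK2, from -0.06 to 0.16 for CRK4 and from -0.24 to 0.46 for CRK20. No other named member changed direction in these fits. Without detection calls, signal over background is unknown, which limits the members below the lower quartile.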

Other observations

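The gene table names 2 more loci of the family that were not on the list of 41. CRK1 was at 2.94 and 2.85 in the wild type and at 3.05 and 3.05 in 35S:∆13RAP2.12, below the array-wide lower quartile in both groups (difference 0.15, limma adjusted p = 0.586). CRK9, also named EP1, lies between CRK8 and CRK10 in the longest run, and was at 9.39 and 9.66 beside 9.33 and 9.23. Its difference was -0.25 with a 95% interval of -0.63 to 0.14 (limma adjusted p = 0.487), so neither locus adds to the 7 called members.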
